A study of Rattus norvegicus with 48 samples.

Results

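Respiratory chain complexes II, III and IV, cytochrome c and the ATP synthase, which is counted as complex V, were followed through 43 genes in rat liver biopsies. The genes were taken from the array by name: succinate dehydrogenase (Sdh), the Uqcr genes, Cox4 to Cox8 without Cox4i2, cytochrome c, and all Atp5 genes under old or new names. Where a gene had several probe sets, the brightest on average over the 48 arrays was used. They were 43 of the 14506 genes with a probe set carrying a single symbol, 4 of complex II, 7 of complex III, 1 for cytochrome c, 15 of complex IV and 16 of complex V. Cyc1, Uqcr10, Cox6b1, Cox7a1 and Atp5mf had no such probe set and were not analysed here, and neither were the subunits encoded by mitochondrial DNA. Cox6c-ps1, a pseudogene by its symbol, was caught by the name rule and is given apart.

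The livers came from male Wistar rats, 1 array per animal, with the biopsy taken from the right lobe under fentanyl, fluanisone and midazolam anaesthesia. The IPC+IPO group (n = 10) had both interventions. The IPO group (n = 10) had 30 min of ischemia of the whole liver, then blood flow released and stopped again for 30 sec each in 3 cycles, and the reperfusion period of 30 min. In the IPC group (n = 10) the liver was made ischemic for 10 min and reperfused for 10 min ahead of that insult. The IRI group (n = 10) had only the ischemia (30 min) followed by reperfusion (30 min), and the sham group (n = 8) had no ischemia. The labels name no genotype, batch or date. Values are RMA expression on the log2 scale as deposited, where 1 unit is a doubling of signal. The animals are separate rats, so the p-values refer to the spread between rats.

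Electrons from the citric acid cycle enter the chain at complex II, which oxidises succinate to fumarate and reduces ubiquinone, or at complex I. Complex III passes them from ubiquinol to cytochrome c, a small soluble carrier, and complex IV hands them to oxygen. Complexes III and IV pump protons, complex II does not, and the ATP synthase lets protons back through its c ring to drive ATP synthesis. During ischemia succinate builds up in many tissues and the ATP synthase can run backwards and hydrolyse ATP, a reaction that the inhibitor protein IF1 restrains. Hepatocytes are rich in mitochondria, and cytochrome c that leaves them can trigger apoptosis. Whole biopsies were measured, so fewer cells of a type and less RNA per cell cannot be told apart.

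The arrays differed in the standard deviation of their log2 values over all 14506 genes, called the array spread. Its mean was 1.86 ± 0.153 (SD) in IPC+IPO, 1.91 ± 0.0650 in IPO, 1.85 ± 0.0827 in IPC, 1.77 ± 0.111 in IRI and 1.72 ± 0.134 in sham. Most bright genes moved with it, so the called differences are also given with spread as a covariate. Spread was computed from the same values and differed between groups, so it is confounded in part with them. The covariate can therefore take away or add group differences, and neither fit is treated as the correct one. The 11 hepatocyte markers averaged between 11.8 and 12.0 in the 5 groups, the 7 striated muscle markers between 5.27 and 5.44 and the 6 neutrophil markers between 4.87 and 5.04. The mean of the 3 erythroid markers measured was 8.22 in IPC+IPO, 8.09 in IPO, 8.08 in IPC, 8.46 in IRI and 7.86 in sham. Kupffer cell and macrophage markers (8 genes) averaged 7.53, 7.52, 7.60, 7.15 and 7.25 in the same order of groups. Precision is limited by how many arrays each group has.

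Most of these genes gave strong signals in every group. Of the 43, 38 averaged between 8.18 (Atp5f1c, the gamma subunit that rotates inside the ATP synthase head) and 12.17 (Atp5mc3, a c ring gene), at percentiles 87.9 to 99.8 of all genes. The limit of 8, above which a gene is called bright here, was set after the values were seen, and the other 5 members averaged between 4.44 and 5.53. Signals of different probe sets depend on their probes as well as on RNA, so these levels say nothing about the relative amounts of the subunits. Within complex II the mean signal ran from 9.47 (Sdha) to 10.40 (Sdhd), within complex III from 9.54 (Uqcrc1, a core protein) to 10.86 (Uqcr11), and cytochrome c stood at 9.85. The brightest of complex IV was Cox7c at 11.64, followed by Cox4i1, the large nuclear-encoded subunit, at 11.60.

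Complex IV has isoforms known from particular tissues, and their probe sets gave weak signals here. Cox6a1, the isoform of most tissues, averaged 10.85, while Cox6a2, the heart and skeletal muscle isoform, averaged 5.53. Cox8a averaged 11.11, while the muscle form Cox8b averaged 4.69 and the testis form Cox8c 4.75. Cox6b2, known from testis, stood at 5.25 and the pseudogene Cox6c-ps1 at 4.44. These 5 genes lay between percentiles 18.1 and 41.9 of all genes.

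Promoters of 37 of the 43 genes were found by gene ID or symbol in the RefSeq table of assembly GRCr8, each from 250 bases before to 50 bases after the gene's start. Promoters of 4 genes are printed because the results turn on their transcripts: Sdha and Cycs, higher in IPO than in IRI, Atp5mg, lower in IPO than in IRI, and Atp5mc2, higher in IRI than in sham. They lie at chr1:30764303-30764602 (plus strand), chr4:80984718-80985017 (minus), chr8:54130358-54130657 (minus) and chr7:135678169-135678468 (minus). Each is read 5′ to 3′ on the strand of the gene. Capitals mark matches to any of 6 short motifs, searched on both strands.
Sdha: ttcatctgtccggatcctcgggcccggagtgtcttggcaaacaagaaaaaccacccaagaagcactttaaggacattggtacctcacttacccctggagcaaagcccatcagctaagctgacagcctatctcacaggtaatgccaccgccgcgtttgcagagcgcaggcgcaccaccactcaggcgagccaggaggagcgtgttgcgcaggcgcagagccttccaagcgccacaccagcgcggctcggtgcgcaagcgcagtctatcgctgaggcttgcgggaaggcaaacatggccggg
Cycs: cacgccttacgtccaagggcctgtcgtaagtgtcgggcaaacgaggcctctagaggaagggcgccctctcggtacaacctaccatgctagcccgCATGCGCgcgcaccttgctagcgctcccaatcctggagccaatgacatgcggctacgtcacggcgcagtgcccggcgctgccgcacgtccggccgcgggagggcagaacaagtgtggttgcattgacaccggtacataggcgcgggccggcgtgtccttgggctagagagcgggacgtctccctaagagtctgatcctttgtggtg
Atp5mg: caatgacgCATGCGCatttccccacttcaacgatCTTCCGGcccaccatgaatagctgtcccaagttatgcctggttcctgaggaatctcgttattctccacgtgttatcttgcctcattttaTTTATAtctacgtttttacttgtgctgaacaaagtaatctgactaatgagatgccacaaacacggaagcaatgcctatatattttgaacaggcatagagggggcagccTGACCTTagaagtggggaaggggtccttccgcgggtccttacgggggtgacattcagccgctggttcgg
Atp5mc2: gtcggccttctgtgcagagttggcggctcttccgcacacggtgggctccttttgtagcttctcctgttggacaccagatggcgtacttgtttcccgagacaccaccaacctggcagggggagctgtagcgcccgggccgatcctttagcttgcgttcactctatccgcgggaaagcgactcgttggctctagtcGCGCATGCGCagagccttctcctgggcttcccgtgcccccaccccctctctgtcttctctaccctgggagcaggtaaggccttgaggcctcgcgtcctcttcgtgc

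The motifs were the core of the nuclear respiratory factor 1 site (NRF1, CATGCGC), an ETS site of the kind GABP binds (CCGGAAG), YY1 (AAGATGG), the estrogen-related receptor element (ERR, AAGGTCA), SP1 (GGGCGG) and the TATA box (TATAAA). NRF1, GABP and ERR are factors known for control of nuclear genes of the respiratory chain. In Cycs the NRF1 core lay at -156 to -150 bases from the start. In Atp5mc2 the core occurred on both strands in overlapping letters, at -56 to -50 and -53 to -47. Atp5mg held 4 of the motifs: the NRF1 core at -242 to -236, the ETS letters at -216 to -210, the TATA letters at -127 to -122 and the ERR letters at -19 to -13. None of the 6 exact letter strings occurred in this window of Sdha. Variants of these sites were not searched, so the window may still hold a site of these factors.

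Among the 37 promoters, 9 held the NRF1 core (24.3%, against 3.77% of all 33469 promoters in the table). The ETS letters stood in 14 (37.8%, against 8.75%), the YY1 letters in 8 (21.6%, against 7.01%) and the ERR letters in 7 (18.9%, against 4.61%). SP1 letters occurred in 16 (43.2%, against 33.1%) and the TATA box in 3 (8.11%, against 14.2%). These counts describe letters and were not tested. The regulators themselves were measured on the same arrays: Nrf1 averaged 5.70 and did not pass in IPO against IRI (0.05 ± 0.07, limma adjusted p = 0.546), Gabpa was higher by 0.56 ± 0.17 (adjusted p = 0.0258) and Esrra fell by 0.29 ± 0.08 (adjusted p = 0.0188). Ppargc1a, a coactivator of mitochondrial biogenesis, was at -0.15 ± 0.16 (adjusted p = 0.449). With array spread as a covariate none of the 15 regulators measured was called in IPO against IRI.

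The comparison of IRI with sham asks what ischemia and short reperfusion did to these transcripts. Atp5mc2, 1 of 3 genes that encode the same mature c subunit of the proton-carrying ring, was the only gene called among the 43, and it was higher in IRI. Of all genes tested 0.172% were called higher in IRI, and of bright genes 1.16%, so a single gene is also a small count. In IRI livers Atp5mc2 ran from 9.83 through a median of 10.18 to 10.79, against 8.48, 9.29 and 10.29 in sham livers. The ranges overlapped, and 5 of 10 IRI livers exceeded the highest sham liver. The difference was 0.92 ± 0.19 (SE), 1.89-fold (limma adjusted p = 0.0212), and the second probe set of the gene gave 1.04 ± 0.22. With spread as a covariate it was 0.83 ± 0.16 (adjusted p = 0.0021). The call was lost without IRI animal 6 or 9 or without sham animal 44, 45, 46 or 47, with adjusted p values over the 48 omissions of 0.00158 to 0.0937. Without sham animal 43 limma called 6 members, and without sham animal 48 it called 12.

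The other c ring genes were not called in IRI against sham. Atp5mc1 ran from 10.39 through 10.67 to 10.90 in IRI livers, against 9.21, 10.23 and 11.02 in sham livers, so that the IRI values lay inside the sham range. It differed by 0.53 ± 0.14 (adjusted p = 0.08). Atp5mc3, the brightest of the 3, differed by -0.15 ± 0.18.

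Next to Atp5mc2 in IRI against sham by p-value came Cox6a1 and Uqcrq. Cox6a1 ran from 10.58 through 10.95 to 11.26 in IRI livers, against 10.03, 10.48 and 10.96 in sham livers, with 4 IRI animals above all sham animals. The difference was 0.42 ± 0.11 (limma adjusted p = 0.0647). Uqcrq, a small subunit of complex III that binds ubiquinone, ran from 10.18 through 10.60 to 10.70 in IRI livers, against 9.76, 10.28 and 10.56 in sham livers. Here 6 IRI animals exceeded every sham animal, and the difference was 0.37 ± 0.10 (adjusted p = 0.0796).

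Over the whole set, 33 of the 43 genes had a positive difference in IRI against sham (76.7%, beside 58.4% of all genes and 69.9% of bright genes). An unadjusted limma p under 0.05 was found for 16 members, all bright, beside 1662 of all 14506 genes and 562 of 1985 bright genes. The median difference was 0.17, beside 0.03 over all genes. Bright genes as a class stood higher: the median was 0.18 over the 38 bright members and 0.14 over the 1985 genes that average 8 or above. By complex the medians were 0.26 for complex II, 0.18 for complex III, 0.17 for complex IV and 0.16 for complex V. Members with a negative sign included Atp5pf (median 9.50 in IRI livers and 9.72 in sham livers), a stalk subunit, and Atp5mk (9.64 and 9.72), a small membrane subunit.

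With spread as a covariate limma called 11 of the 43 genes higher in IRI than in sham and none lower, where 2.96% of all genes and 9.17% of bright genes were called higher. All 11 are bright genes. They were Sdhc and Sdhd, the membrane anchors of complex II; Uqcrq of complex III; Cox5b, Cox6a1, Cox7a2l and Cox8a of complex IV; and Atp5mc1, Atp5mc2, Atp5mg and Atp5pb of complex V. Sdhd differed by 0.59 ± 0.17 (adjusted p = 0.0309) and Cox8a by 0.46 ± 0.13 (adjusted p = 0.0261). The remaining values of the 11 can be read in the plot of IRI minus sham. When the 14 arrays with the smallest spread were dropped, which keeps 2 sham arrays and 6 IRI arrays, no member was called and Atp5mc2 stood at -0.08. The 3 erythroid markers had differences of 0.23 to 0.82 in the same comparison, none called, and their part in these differences was not tested.

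**Figure D1:**
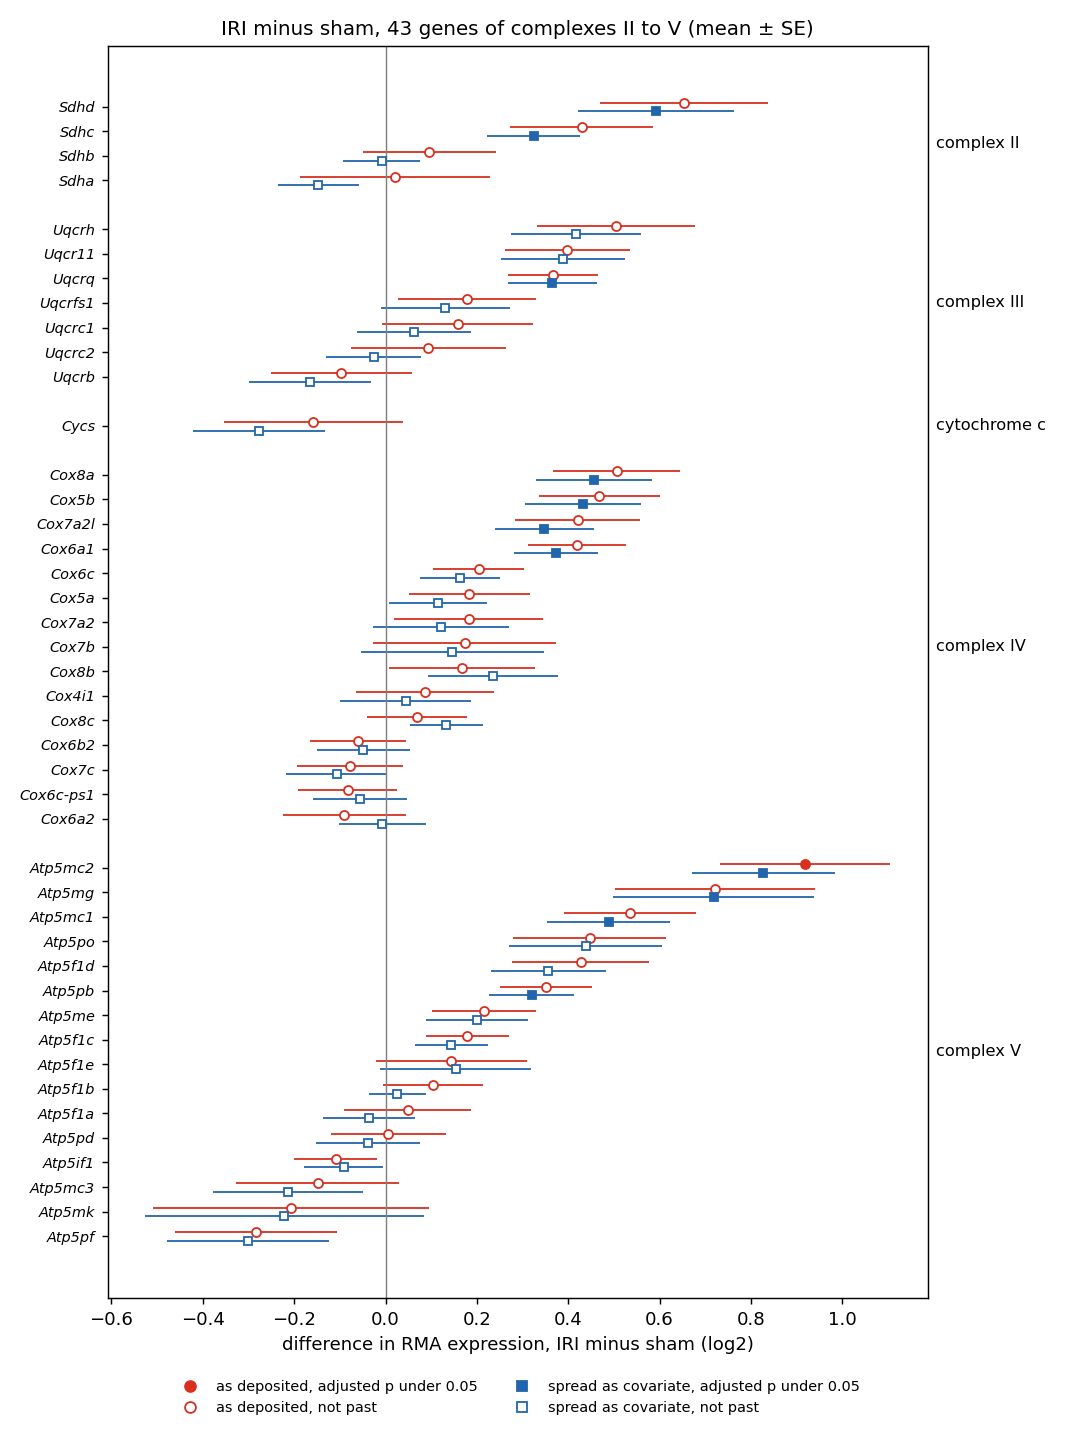
Difference in log2 RMA expression, IRI minus sham, for each of the 43 genes (x axis, mean ± SE) grouped by complex, from the fit as deposited (circles) and with array spread as a covariate (squares); filled symbols passed an adjusted p of 0.05. Atp5mc2 is the only filled circle, at 0.92, while 11 squares are filled.

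The comparison of IPO with IRI asks what the short cycles at the start of reperfusion changed. In IPO livers 4 of the 43 genes were called higher and 5 lower. The higher ones were Sdha and Sdhb, the flavoprotein and the iron-sulfur subunit that form the catalytic head of complex II, Uqcrb, a small complex III subunit near the quinone site, and Cycs. The lower ones were Atp5mg, Atp5po and Atp5f1e of the ATP synthase, Uqcrq of complex III and the dim muscle isoform Cox8b. Of all genes 12.4% were called higher and 10.4% lower in this comparison, and the members' shares of 9.3% and 11.6% were near these.

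Bright genes gave another background. Of the 1985 genes averaging 8 or above, 27.4% were called higher in IPO than in IRI and 3.27% lower, while the 38 bright members gave 4 genes each way (10.5%). The median difference of the bright members was 0.02, beside 0.27 over all bright genes. These shares are given as descriptions and were not tested.

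Sdha ran from 9.19 through a median of 9.98 to 10.14 in IPO livers, against 8.37, 9.17 and 10.01 in IRI livers, and 4 IPO animals stood above every IRI animal. The difference was 0.70 ± 0.20 (SE), 1.63-fold (limma adjusted p = 0.0183). Sdhb ran from 9.82 through 10.19 to 10.28 in IPO livers, against 9.30, 9.66 and 10.14 in IRI livers. All but the lowest 3 IPO animals exceeded the highest IRI animal, and the difference was 0.45 ± 0.14 (adjusted p = 0.0234).

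The membrane anchors of complex II, which hold the heme and the ubiquinone site, were not called. Sdhc differed by 0.24 ± 0.15 (adjusted p = 0.193) and Sdhd by -0.25 ± 0.17 (adjusted p = 0.244). Sdhd medians were 10.51 in IPO livers and 10.70 in IRI livers, and the lowest IPO animal, animal 30, stood at 9.31. The 4 subunits of the enzyme had differences of both signs. With spread as a covariate the differences were 0.18 ± 0.09 for Sdha (adjusted p = 0.496), 0.12 ± 0.09 for Sdhb (adjusted p = 0.645), -0.09 ± 0.10 for Sdhc and -0.44 ± 0.17 for Sdhd (adjusted p = 0.35).

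Cycs, the electron carrier between complexes III and IV, ran from 9.77 through 10.20 to 10.37 in IPO livers, against 8.58, 9.53 and 10.10 in IRI livers. Of the 10 IPO animals, 8 lay above all IRI animals. The difference was 0.70 ± 0.19, 1.63-fold (limma adjusted p = 0.0155), and the second probe set gave 0.72 ± 0.19. It kept its call in each of the 48 fits that left out a single array, with adjusted p values between 0.0050 and 0.0499. With the covariate it was 0.33 ± 0.15 (adjusted p = 0.422).

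In complex III the called genes had opposite signs. Uqcrb ran from 10.66 through 10.86 to 10.96 in IPO livers, a narrow band, against 9.72, 10.55 and 10.91 in IRI livers. It was higher by 0.42 ± 0.15 (limma adjusted p = 0.0362), and its other probe sets gave 0.48 and 0.43. Uqcrq ran from 9.97 through 10.31 to 10.60 in IPO livers, against 10.18, 10.60 and 10.70 in IRI livers, and 2 IPO animals lay below every IRI animal. It fell by 0.26 ± 0.09 (adjusted p = 0.0422). The core proteins Uqcrc1 (0.25 ± 0.16) and Uqcrc2 (0.34 ± 0.16) were not called, nor was the Rieske iron-sulfur protein gene Uqcrfs1 (-0.05 ± 0.14), the hinge protein gene Uqcrh (0.01 ± 0.16) or Uqcr11 (-0.11 ± 0.13).

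Complex IV held no called gene among its 10 bright members in IPO against IRI. Their differences ran from -0.34 for Cox7b to 0.23 for Cox5a, and Cox4i1, which regulates the enzyme through ATP binding, differed by 0.02 ± 0.14. Cox4i1 ran from 11.24 through 11.67 to 11.85 in IPO livers, against 11.02, 11.75 and 11.90 in IRI livers, wholly overlapping ranges. The called gene of the complex was Cox8b, which ran from 4.35 through 4.54 to 4.77 in IPO livers, against 4.43, 4.71 and 5.70 in IRI livers. It fell by 0.42 ± 0.15 (limma adjusted p = 0.0428) at a dim signal where 4 IRI animals stood apart at the top. With spread as a covariate the Cox8b difference was -0.21 ± 0.14 (adjusted p = 0.656), and without the 14 arrays of lowest spread it was -0.05. The 7 striated muscle markers all had negative differences in this comparison (-0.35 to -0.06, 1 called), and their part in the Cox8b value was not tested.

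The ATP synthase had 3 called genes in IPO against IRI, all lower, and 13 that were not called. Of the catalytic head, Atp5f1a (alpha) was at 0.33 ± 0.13 (limma adjusted p = 0.0557), Atp5f1b (beta, the catalytic subunit) at 0.18 ± 0.10 and Atp5f1c (gamma) at 0.12 ± 0.09, none of them called. The small epsilon subunit gene Atp5f1e of the central stalk ran from 10.07 through 10.27 to 10.79 in IPO livers, against 10.11, 10.97 and 11.12 in IRI livers. Of the IRI animals 7 lay above the highest IPO animal, and the gene fell by 0.48 ± 0.16 (adjusted p = 0.0287). Atp5f1d, its partner delta in that stalk, differed by 0.02 ± 0.14.

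Of the peripheral stalk, which keeps the head from turning, Atp5po alone was called. This gene for the oligomycin sensitivity conferring protein ran from 9.65 through 10.27 to 10.82 in IPO livers, against 9.99, 10.85 and 11.14 in IRI livers. It fell by 0.45 ± 0.16 (limma adjusted p = 0.0369). The other stalk genes were Atp5pb (-0.07 ± 0.10), Atp5pd (0.26 ± 0.12) and Atp5pf (0.08 ± 0.17). Of the membrane subunits that help the enzyme form dimers, Atp5mg (subunit g) ran from 7.41 through 8.14 to 8.73 in IPO livers, against 7.87, 8.93 and 9.37 in IRI livers. It fell by 0.68 ± 0.21, to 0.623 of the IRI signal (adjusted p = 0.0229). Atp5me (-0.12 ± 0.11) and Atp5mk (-0.14 ± 0.28) of the same part were not called.

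The inhibitor gene Atp5if1, whose product holds back ATP hydrolysis when the proton gradient fails, ran from 9.01 through 9.15 to 9.36 in IPO livers, against 9.05, 9.30 and 9.47 in IRI livers. The difference of -0.12 ± 0.09 did not pass (limma adjusted p = 0.242). In IPC+IPO its median was also 9.15, in IPC 9.23 and in sham 9.37, with overlapping ranges throughout. The c ring genes were at -0.04 ± 0.18 (Atp5mc2) and 0.27 ± 0.17 (Atp5mc3) in IPO against IRI, and Atp5mc1 was at 0 within its error of 0.14.

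With spread as a covariate no member was called in IPO against IRI, and limma called 2 of all genes. The positive differences shrank, from Sdha to Uqcrb (0.21 ± 0.14, adjusted p = 0.632). The negative differences of the called bright members were, with the covariate, Atp5mg -0.69 ± 0.22 (adjusted p = 0.26), Atp5f1e -0.45 ± 0.17 (adjusted p = 0.328), Atp5po -0.48 ± 0.17 (adjusted p = 0.289) and Uqcrq -0.26 ± 0.10 (adjusted p = 0.332). Without the 14 arrays of lowest spread they were smaller for Atp5mg (-0.38), Atp5po (-0.30) and Uqcrq (-0.18) and stood at -0.47 for Atp5f1e, none called. In that fit Sdha (0.55) and Sdhb (0.35) kept their calls, while Cycs (0.45) and Uqcrb (0.23) lost theirs. A single IRI animal, animal 7, decided much of the count: without it only Cycs was called. Without IRI animal 8 or 9, or without IPO animal 22, 23, 26 or 28, 5 members were called. Counts over all genes in these fits are not given here, so the shifts do not set the members apart. Erythroid markers, 3 genes, were lower in IPO than in IRI by 0.12 to 0.67 (1 called). Of 8 Kupffer cell and macrophage markers 2 were called higher (median difference 0.39), and of 11 hepatocyte markers 2 were called higher and 1 lower (median 0.14). The part of these cell types in the members' differences was not tested.

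**Figure D2:**
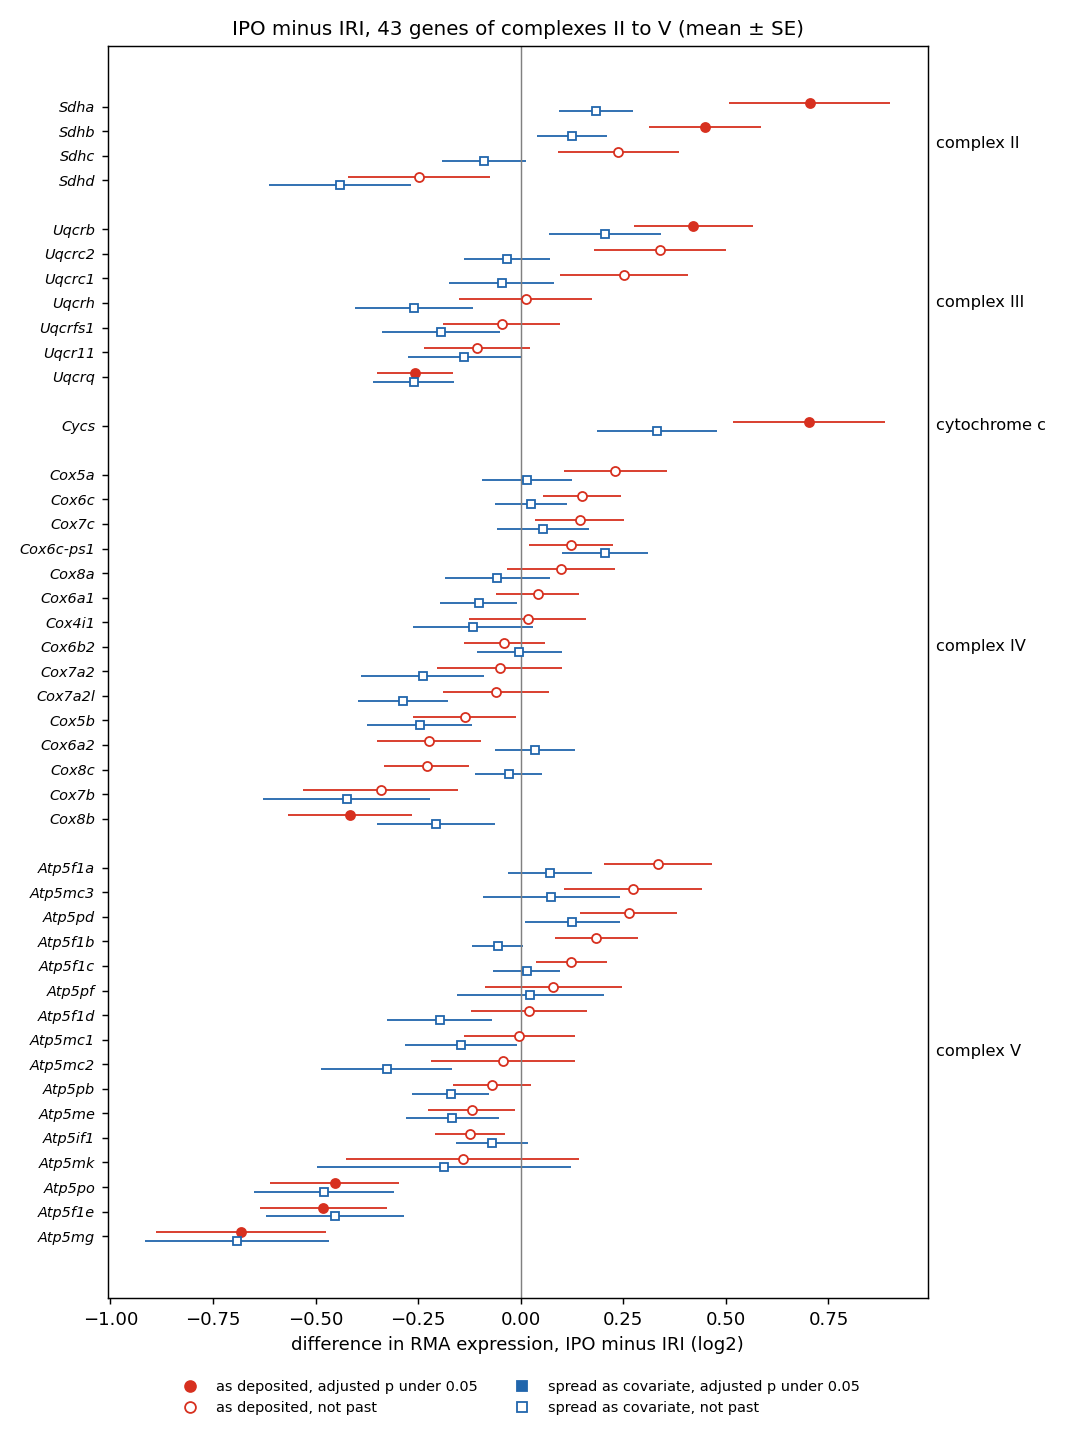
Difference in log2 RMA expression, IPO minus IRI, for each of the 43 genes (x axis, mean ± SE) grouped by complex, from the fit as deposited (circles) and with array spread as a covariate (squares); filled symbols passed an adjusted p of 0.05. Sdha and Cycs lie farthest right at 0.70 and Atp5mg farthest left at -0.68, and no square is filled.

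**Figure D3:**
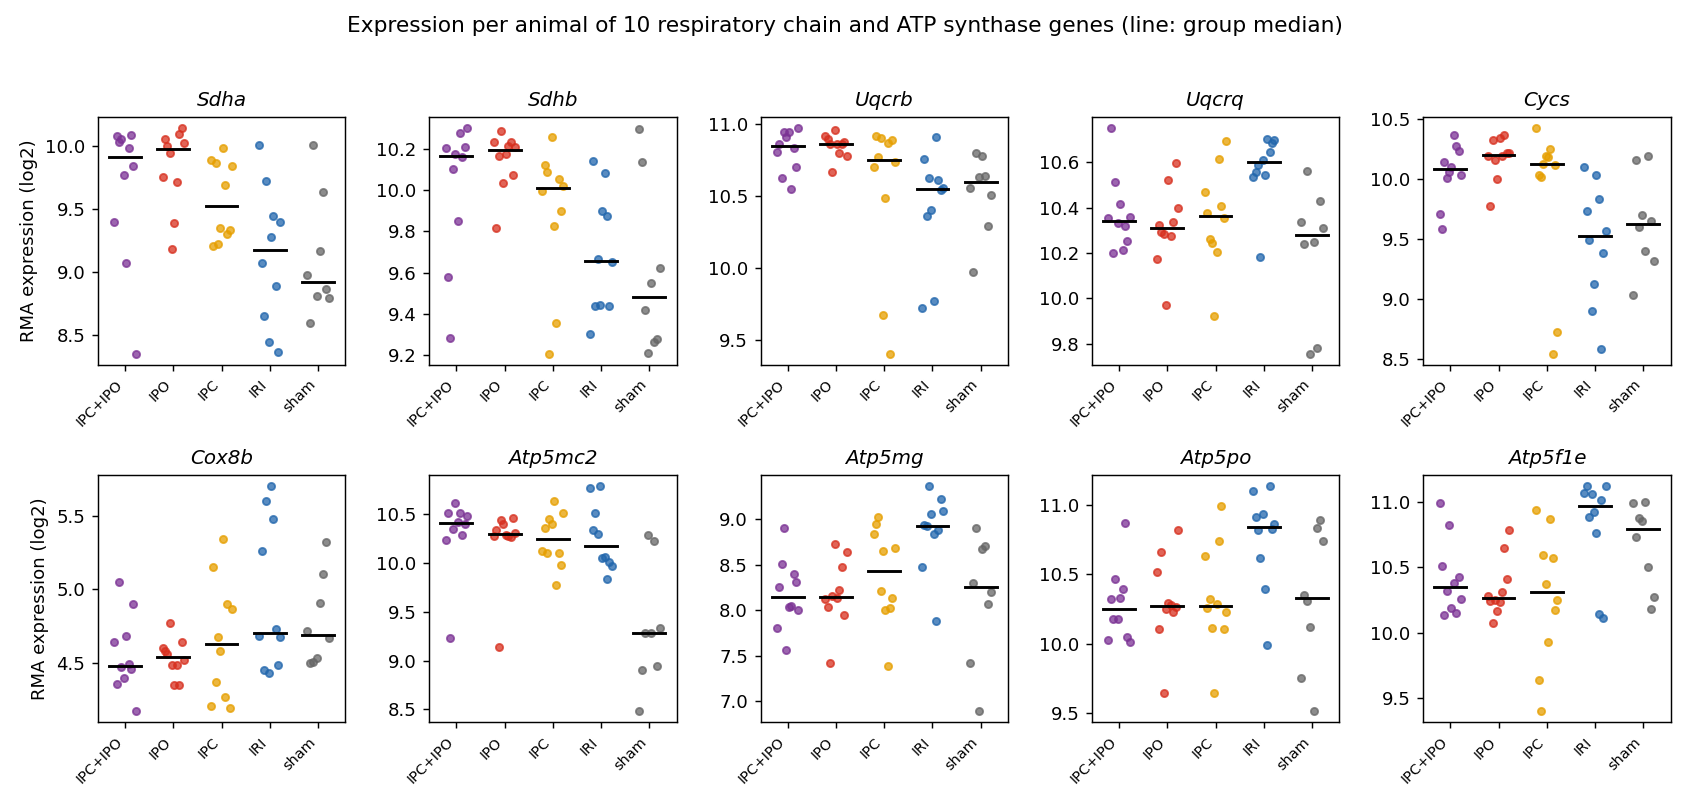
Log2 RMA expression (y axis) of the 10 genes called in IRI against sham or in IPO against IRI, 1 point per animal and a line at the group median, for IPC+IPO, IPO, IPC, IRI and sham. The ranges of IPO and IRI overlap in every panel, and the sham median of Atp5mc2 (9.29) is below those of the other groups.

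Preconditioning set against IRI gave no call among the 43 genes, where 0.0276% of all genes were called in either direction. An unadjusted limma p under 0.05 was found for 8 members, beside 2799 of all 14506 genes. The smallest p-value belonged to Atp5f1e, which ran from 9.40 through 10.31 to 10.94 in IPC livers, against 10.11, 10.97 and 11.12 in IRI livers. Of the IPC animals, 3 lay below every IRI animal, and the difference was -0.55 ± 0.16 (limma adjusted p = 0.154). Atp5po (-0.43 ± 0.16, adjusted p = 0.179) and Cox7b, a small subunit of complex IV (-0.48 ± 0.19, adjusted p = 0.195), came next. Sdha differed by 0.44 ± 0.20 (adjusted p = 0.224) and Cycs by 0.39 ± 0.19 (adjusted p = 0.246). The IPC group was uneven for Cycs, with 6 animals above every IRI animal and the lowest at 8.55.

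The combination set against IRI gave no call among the 43 genes either, where 0% of all genes were called. Here 11 members had an unadjusted limma p under 0.05, beside 3118 of all 14506 genes. Atp5mg ran from 7.57 through 8.15 to 8.90 in IPC+IPO livers, against 7.87, 8.93 and 9.37 in IRI livers. The difference was -0.69 ± 0.21 (limma adjusted p = 0.0987). Cycs ran from 9.58 through 10.08 to 10.36 in IPC+IPO livers, against 8.58, 9.53 and 10.10 in IRI livers, a difference of 0.57 ± 0.19 (adjusted p = 0.107). Atp5po differed by -0.48 ± 0.16 (adjusted p = 0.109). Without IRI animal 1 or without IPC+IPO animal 38, 4 members were called, Atp5mg and Cycs among them both times.

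The 3 intervention groups share the IRI animals as their control, so their differences are not independent of each other. Side by side, Sdha differed from IRI by 0.54 in IPC+IPO, 0.70 in IPO and 0.44 in IPC. Atp5f1e differed by -0.40, -0.48 and -0.55 in the same order, and Atp5mg by -0.69, -0.68 and -0.48. Between intervention groups no member was called: IPO against IPC, IPC+IPO against IPC and IPC+IPO against IPO each had 0% of all genes called.

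The smallest p-values between intervention groups belonged to Atp5mc3 and Uqcrb. Atp5mc3 differed by 0.37 ± 0.17 in IPO against IPC (limma adjusted p = 0.835) and by 0.34 ± 0.17 in IPC+IPO against IPC (adjusted p = 0.9998). Uqcrb differed by 0.31 ± 0.15 and 0.28 ± 0.15 in these comparisons. Both genes had a wide IPC group, with Atp5mc3 between 10.66 and 12.44 in IPC. In IPC+IPO against IPO the smallest p-values were those of the dim genes Cox8c (0.14 ± 0.10) and Cox6a2 (0.17 ± 0.13).

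The interaction asks whether the combination differs from the sum of both interventions. No member was called, and 0% of all genes were. Atp5f1e had the smallest p-value at 0.63 ± 0.22 (limma adjusted p = 0.209), a positive sign that says the combination lowered it less than the sum of both. Sdha followed at -0.61 ± 0.28 (adjusted p = 0.231), and with spread as a covariate at -0.11.

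In the values as deposited, more members were called against sham in the intervention groups than in IRI, all of them higher. With spread as a covariate the order was the reverse, with 0, 0 and 3 members in IPC+IPO, IPO and IPC and 11 in IRI. Of all genes that fit called 34, 0, 275 and 854. The direction of the calls also depended on the processing. After renewed quantile normalization 3 of 5 called members were lower in IPO against sham and 4 of 6 in IPC against sham. Array weights called 4, 6 and 6 members lower in IPC+IPO, IPO and IPC. Of all genes, the renewed normalization called 1316 in IPO and 670 in IPC against sham, in either direction. Array weights called 9007, 9749 and 7051 of all genes in IPC+IPO, IPO and IPC. How many of these genes were lower is not given here. In the fit as deposited, 5 members were higher in IPC+IPO against sham (3.05% of all genes and 12.9% of bright genes were called higher): Atp5mc2, Cox6a1, Cox8a, Cox6c and Sdhc. In IPO against sham there were 17 (15.4% of all genes, 45% of bright genes), and in IPC against sham 5 (5.6% of all genes, 21.2% of bright genes): Atp5mc2, Cox8a, Cox6a1, Atp5f1d and Cox6c. Each of these comparisons uses the same 8 sham animals. Single arrays moved the counts: in IPC+IPO against sham limma called 1 member without sham animal 46 and 17 without sham animal 48, and in IPC against sham 3 without sham animal 46 and 13 without sham animal 48.

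Atp5mc2 had the smallest p-value of the members in all 3. It ran from 9.23 through 10.41 to 10.62 in IPC+IPO, from 9.14 through 10.30 to 10.46 in IPO and from 9.78 through 10.24 to 10.64 in IPC, against 8.48, 9.29 and 10.29 in sham. The differences from sham were 0.96 ± 0.19 in IPC+IPO (limma adjusted p = 0.00525), 0.88 ± 0.19 in IPO (adjusted p = 0.00342) and 0.90 ± 0.19 in IPC (adjusted p = 0.00351). With spread as a covariate they were 0.69 (adjusted p = 0.0514), 0.50 (adjusted p = 0.316) and 0.64 (adjusted p = 0.0282). Without the 14 arrays of lowest spread they were 0.18, 0.08 and 0.0003.

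Cox8a, whose product is a small membrane subunit of complex IV, ran from 10.62 through 11.32 to 11.47 in IPC+IPO, from 10.62 through 11.27 to 11.36 in IPO and from 11.04 through 11.25 to 11.70 in IPC, against 9.89, 10.57 and 11.22 in sham. It was higher than in sham by 0.65 ± 0.14 in IPC+IPO, 0.60 ± 0.14 in IPO and 0.65 ± 0.14 in IPC (limma adjusted p = 0.0101, 0.0049 and 0.00447). Cox6a1 was higher by 0.50, 0.46 and 0.49 with an SE of 0.11 each. With the covariate the call in IPC against sham held for Cox8a, Cox6a1 and Atp5mc2 (0.951% of all genes and 3.93% of bright genes called higher), and no member was called in the other comparisons with sham but IRI.

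Of the 17 genes higher in IPO than in sham, 3 belonged to complex II, 1 was Cycs, 1 was Uqcrh, 5 belonged to complex IV and 7 to complex V. Sdhc differed by 0.67 ± 0.16 (limma adjusted p = 0.00532), Sdhb by 0.55 ± 0.15 (adjusted p = 0.00966) and Sdha by 0.73 ± 0.21 (adjusted p = 0.0143). The median differences were 0.61 for complex II, 0.32 for complex III, 0.10 for complex IV and 0.20 for complex V, beside 0.39 over all bright genes. Complex IV alone had a median of 0.34 when its dim members were left out. Over the 43 genes the median was 0.29, and it was 0.04 with spread as a covariate. Without sham animal 46 the count was 8, without sham animal 47 it was 9, and without IPO animal 27 or sham animal 45 it was 11.

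A test over all 5 groups called 11 members, where 14.4% of all genes and 35.8% of bright genes were called. All 11 are bright, 28.9% of the 38 bright members. They were Sdha, Sdhb and Sdhc, Cycs, Cox6a1, Cox6c and Cox8a, and Atp5mc1, Atp5mc2, Atp5f1e and Atp5mg. Atp5mc2 had the smallest adjusted p (0.00492), followed by Cox8a (0.0092), Cox6a1 (0.00943), Sdhc (0.0227) and Sdha (0.024), all from limma. With the covariate Atp5mc2 was the only gene of the 11 still past the threshold (adjusted p = 0.0188). No member of complex III was called.

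Members differed in how closely they followed array spread. Slopes were fitted within groups with limma and are given per 0.1 of spread. Spread is computed from the same values, so by construction bright genes tend to rise with it and dim genes to fall. The signs of these slopes and their p-values are therefore given as descriptions. Of the 38 bright members 27 had a positive slope past the threshold (71.1%), beside 87.9% of all bright genes, and none had a negative slope past it. Their median slope was 0.11, beside 0.21 over all bright genes. Sdha had the steepest slope at 0.37 ± 0.03 (adjusted p = 7.61e-17), followed by Uqcrc2 (0.27 ± 0.03), Cycs (0.27 ± 0.04), Sdhc (0.23 ± 0.03) and Sdhb (0.23 ± 0.02).

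The 11 bright members without a called slope were Uqcr11 and Uqcrq of complex III, Cox7b and Cox7c of complex IV, and Atp5f1e, Atp5if1, Atp5me, Atp5mg, Atp5mk, Atp5pf and Atp5po of complex V. Atp5mg was at 0.0069 ± 0.06, Atp5po at 0.02 ± 0.05, Uqcrq at 0.0026 ± 0.03 and Atp5f1e at -0.02 ± 0.05. The bright genes called lower in IPO than in IRI were these 4, and the 4 called higher all had called positive slopes. The dim genes Cox6a2 (-0.19), Cox8b (-0.15) and Cox8c (-0.14) had negative slopes past the threshold. What sets the spread of an array was not tested.

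**Figure D4:**
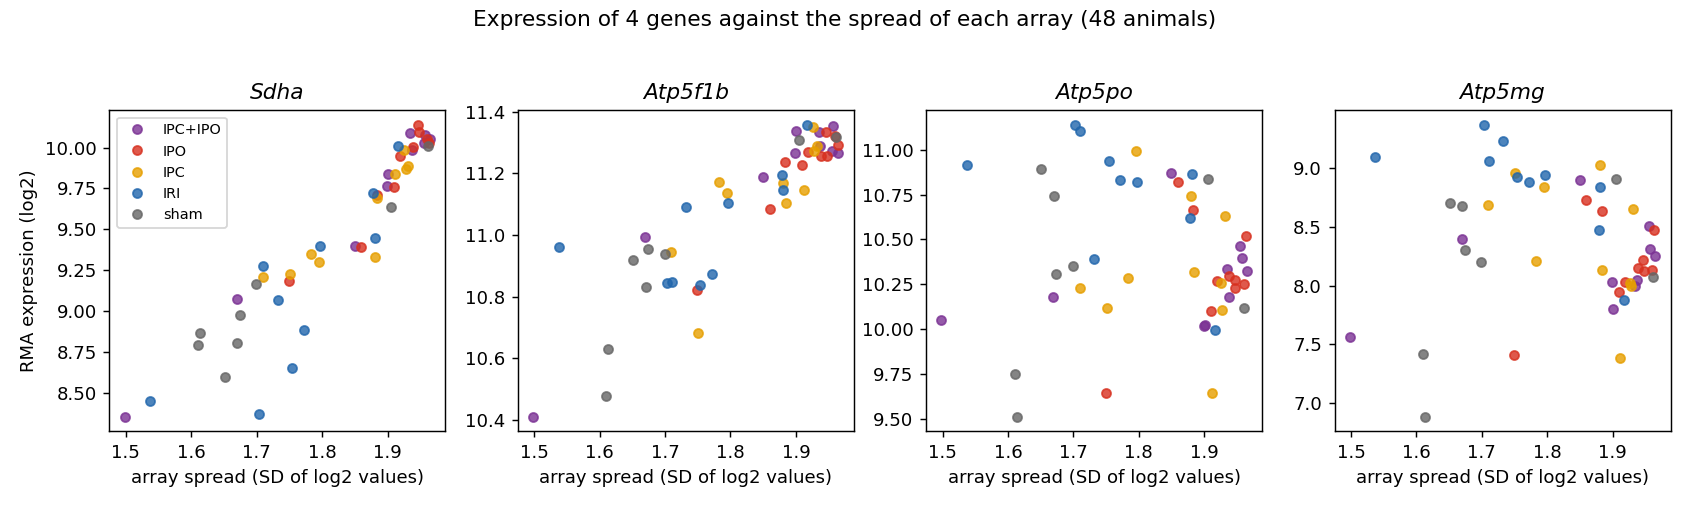
Log2 RMA expression (y axis) against array spread (x axis) for Sdha, Atp5f1b, Atp5po and Atp5mg in 48 animals, coloured by group. Sdha and Atp5f1b climb with spread (slopes of 0.37 and 0.17 per 0.1), while Atp5po and Atp5mg show slopes of 0.02 and 0.0069.

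Within groups the bright members varied together. After group means were removed, the median Pearson r over the 703 pairs was 0.51, beside 0.42 over all pairs of bright genes. After the slope on spread was also removed it was 0.44, beside 0.05. Within complex V (120 pairs) the median was then 0.40, within complex IV (45 pairs) 0.48, within complex III (21 pairs) 0.43, within complex II (6 pairs) 0.16, and between complexes (511 pairs) 0.44. These values are descriptions over 48 animals, and no p was computed. Both genes of a pair were read from the same array of each animal, after the same normalization. With group means alone removed the medians were 0.72 within complex II, 0.44 within complex III, 0.55 within complex IV, 0.45 within complex V and 0.52 between complexes, so the value of complex II depended on the removal of spread.

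Pairs at both ends of the range are named, so their values are extremes by choice. Cycs and Uqcrb had r = 0.94 (Spearman rho = 0.86), and r = 0.91 without the 2 animals farthest from the median of Cycs. It ran from 0.27 to 0.97 within the single groups. Atp5mk and Atp5pf had r = 0.93 (rho = 0.91), Cox8a and Cox6c 0.92 (rho = 0.89) and Uqcrq and Atp5po 0.91 (rho = 0.82). Without the 2 animals farthest from the median these were 0.90, 0.90 and 0.89. At the other end, Atp5mk and Atp5f1a, subunits of the same enzyme, had r = -0.73 (rho = -0.57), -0.63 without the farthest 2 animals, and -0.95 to 0.33 within groups. Before spread was removed their r was -0.47. Sdha and Sdhb, neighbours in the catalytic head of complex II, had r = 0.78 with group means removed and 0.05 once spread was also removed.

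The members were also set beside 66 bright cytosolic ribosomal protein genes, a list chosen after earlier results were known. The r with their mean, spread removed, had a median of 0.65 over the 38 bright members, 35 of them above 0, beside 0.03 over 1881 other bright genes, 978 of them above 0. Uqcrh (0.94, rho = 0.94) and Atp5po (0.94, rho = 0.90) were highest. Sdha (-0.50, rho = -0.48), Atp5f1a (-0.25, rho = -0.27) and Uqcrc1 (-0.04) were the 3 below 0. Without removal of spread these were 0.10, 0.06 and 0.19, and 0 of the 38 lay below 0. For the other bright genes r without that removal was not computed, so the contrast with them is given only for spread removed. With spread removed, r was between 0.78 and 0.98 within each group for Uqcrh, and between -0.81 and -0.40 for Sdha.

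**Figure D5:**
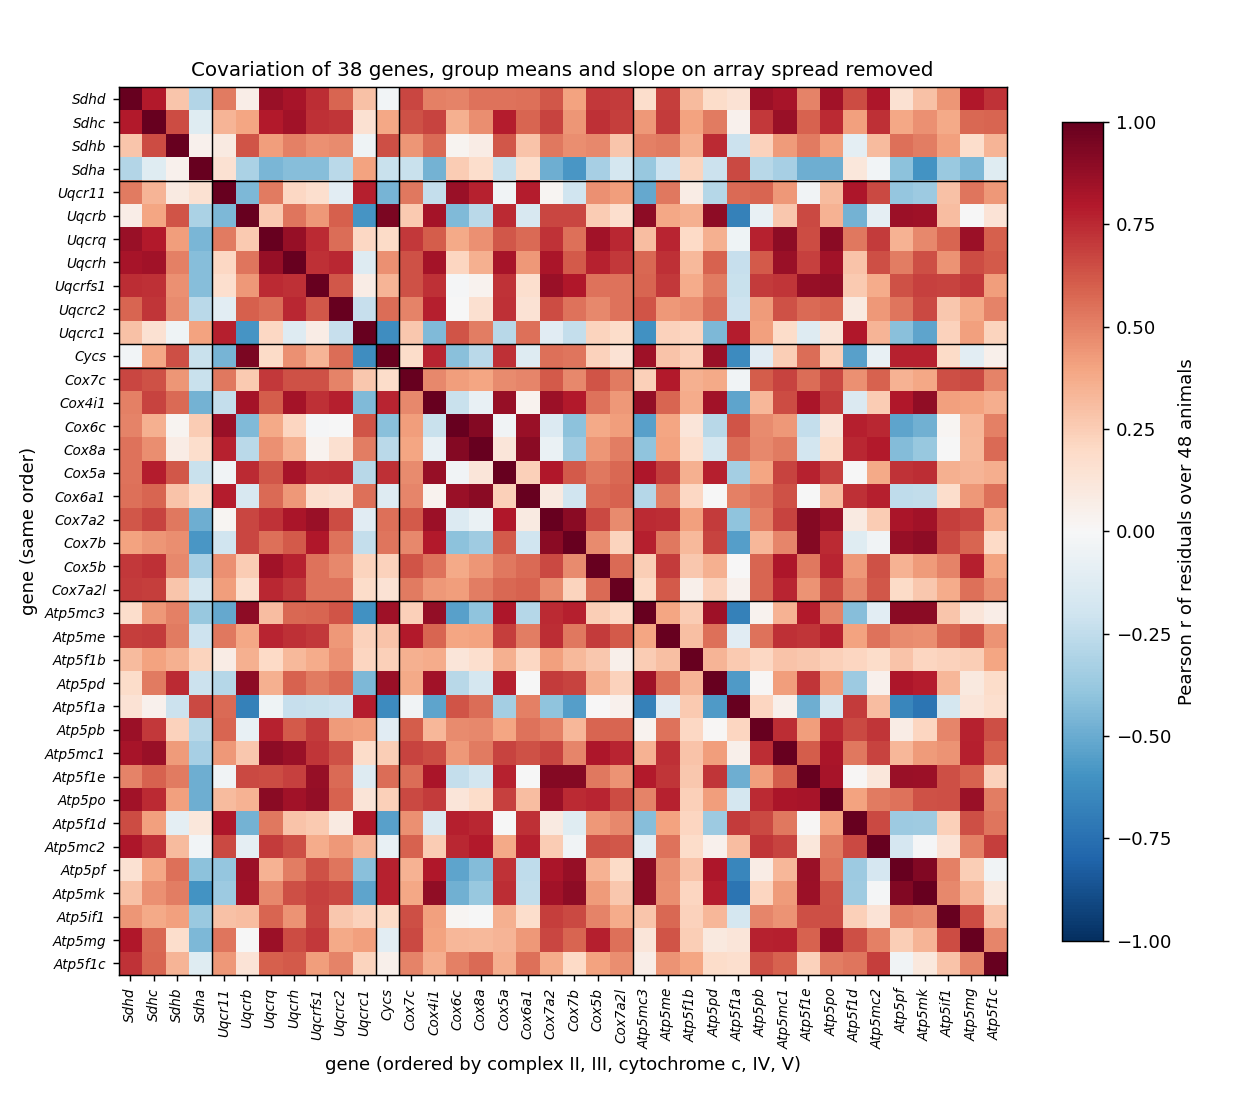
Pearson r between residuals of the 38 bright genes over 48 animals, group means and the slope on array spread removed, genes ordered by complex on both axes; red is positive and blue negative. The median over pairs is 0.44, and Sdha is blue with 28 of 37 genes (8 of 37 were below 0 before spread was removed). Atp5f1a is blue with Atp5mk, Atp5pf, Atp5mc3, Uqcrb and Cycs. Before spread was removed these r were -0.47, -0.37, -0.14, -0.03 and 0.18.

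Neighbouring parts of oxidative metabolism were read from lists of known members. Complex I, the other entry point of electrons, had 33 of 38 listed subunits measured, and in IPO against IRI 1 was higher and 3 were lower, with a median of 0.0010. The fit with the spread covariate called none, with a median of -0.15. Ndufs1, its largest iron-sulfur subunit, was higher by 0.79 ± 0.20 (limma adjusted p = 0.0136), and Ndufa2, Ndufa6 and Ndufs5, small accessory subunits, fell by 0.59 ± 0.20, 0.38 ± 0.13 and 0.50 ± 0.19. In IRI against sham its median was 0.21 with no call.

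Matrix enzymes and carriers had other counts in IPO against IRI. Over all bright genes 27.4% were called higher and 3.27% lower in this comparison, with a median of 0.27. Of 10 citric acid cycle enzymes measured, 6 were higher and none lower, with a median of 0.46. None was called once spread was a covariate, and the median was then 0.07. Sucla2, a succinyl-CoA ligase subunit, was higher by 0.67 ± 0.18 (limma adjusted p = 0.0161) and Cs, citrate synthase, by 0.46 ± 0.14 (adjusted p = 0.0253). Of 9 genes measured from a list of carriers and pore proteins, 5 were higher and 1 lower, with a median of 0.40. With the covariate none was called and the median was 0.03. The higher genes included Slc25a5, an ADP/ATP carrier (0.41 ± 0.15), Slc25a3, the phosphate carrier (0.40 ± 0.14), Vdac1 (0.52 ± 0.16) and Ppif, cyclophilin D of the permeability transition pore (0.56 ± 0.15). The lower gene of the list was Hk2, a hexokinase rather than a carrier or pore protein, which fell by 0.42 ± 0.10.

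Assembly factors of complexes II to V (22 measured) gave 2 higher and 2 lower genes in IPO against IRI, with a median of 0.14. Adding the covariate left none called and a median of -0.03. Atpaf1, which assembles the ATP synthase head, was higher by 0.66 ± 0.18 (limma adjusted p = 0.0175) and Cox20 by 0.59 ± 0.18, while Uqcc2 of complex III fell by 0.68 ± 0.22 and Sdhaf1 of complex II by 0.41 ± 0.12. Of 15 regulators of mitochondrial biogenesis 4 were higher and 1 lower, of 10 import genes 1 was higher, and of 9 antioxidant and uncoupling genes 1 was lower, Gpx4 (0.36 ± 0.10 below IRI). With the covariate none of these was called either, and the medians were -0.04, -0.05 and -0.14. These lists too sit on backgrounds of 12.4% higher and 10.4% lower over all genes, and 27.4% and 3.27% over bright genes. None of the genes on the lists was called in IPC or IPC+IPO against IRI.

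For 8 members the array holds more than 1 probe set. In IPO against IRI they agreed in call for all 8. In IPO against sham, Atp5mc3 was at 0.13 (limma adjusted p = 0.594) in the probe set used and at 0.31 (adjusted p = 0.0443) in the other, and Atp5pd was at 0.27 (adjusted p = 0.101) and 0.41 (adjusted p = 0.0104). Families with processed copies, among them the Atp5 and Cox genes, can share probes with such copies, and this was not checked here.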

How the data were processed

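Liver RNA of 48 rats was measured on Affymetrix whole-transcript arrays, 1 array per animal. The deposited values are log2 expression made by the authors with RMA in Affymetrix Expression Console (versions not given in the sources used here), per the submitters' processing notes, with 29215 probe sets. The platform annotation gives 15310 of them a single gene symbol, 323 several and 13582 none. The probe set of highest mean over all arrays stood for each of 14506 genes, and all 43 members matched the RefSeq gene table.

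The 5 groups were fitted together with limma 3.58.1 in R 4.3.3 (lmFit and eBayes, 43 residual degrees of freedom), two-sided, with Benjamini-Hochberg adjustment over all genes and a threshold of 0.05; scripts were tested on simulated data. The alternatives tried were a trended robust variance, a fit of only the groups compared, array weights, other probe sets, no dim genes, median centring, renewed quantile normalization, array spread as a covariate, a threshold of 0.01, and leaving out single arrays or the 14 of lowest spread. Figures were drawn with Python 3.11.15 and matplotlib 3.10.9.

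Members and lists were chosen with earlier results of these data known. Full values go to the members past the threshold in the 4 main comparisons (or the 3 of smallest p), the 2 of smallest p in other comparisons, the 5 of smallest p in the test over all groups, the highest and lowest member of each complex, and members named for their role. Values given beyond these were chosen after they were seen.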

Additional observations from a re-analysis of the deposited data

Results flagged for a closer look

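A value was singled out where the highest or lowest animal of a group stood apart from the nearest other animal by more of the group's range than Dixon's limit allows. This held in 41 of 215 groups of values (19.1%). Chance gives about 1 in 20 for a single group. The genes were read from the same arrays, and 20 of the 41 values came from IPO animal 30, so the share is not read against that rate. All values are log2 RMA expression.

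IPO animal 30 was the lowest IPO animal in 33 of the 43 genes, 20 of them past Dixon's limit, and its array spread of 1.75 was the lowest of its group. Its values past the limit were Uqcrc2 8.97, Cox8a 10.62, Cox6a1 10.46, Sdhc 9.68, Uqcrfs1 9.27, Atp5f1c 7.85, Cox4i1 11.24, Atp5mc2 9.14, Atp5pb 10.00 and Uqcrh 9.18, and further Sdhb 9.82, Cox7a2l 7.93, Atp5f1b 10.82, Atp5f1d 9.53, Cox6c 11.10, Cox5a 10.61, Uqcrc1 9.09, Sdhd 9.31, Cox7a2 10.34 and Cox5b 9.69.

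In the IPC+IPO group, animal 37 (spread 1.67) was lowest for Cox8a 10.62, Cox6a1 10.56, Atp5f1c 7.77, Atp5mc2 9.23 and Cox6c 11.16. Animal 38 (spread 1.498) was lowest for Uqcrfs1 9.07, Atp5f1a 9.91, Atp5f1b 10.41 and Uqcrc1 8.24 and highest for the pseudogene Cox6c-ps1 5.32. Animal 34 (spread 1.85) was highest for Atp5mc1 11.03, Atp5po 10.87, Atp5me 11.56 and Uqcr11 11.22. In IRI, animal 7 (spread 1.54) was highest for the dim genes Cox6b2 5.88 and Cox6a2 6.38, animal 10 was lowest for Cox5a 10.28 and Atp5mc3 10.91, and animal 1 was lowest for Uqcrq 10.18. IPC animal 12 was highest for Cox8a 11.70 and IPO animal 24 for Cox6c-ps1 4.81.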

How the results depend on the processing

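Counts of members called, as reported, were 1 in IRI against sham, 9 in IPO against IRI, 0 in IPC and IPC+IPO against IRI, 5, 17 and 5 in IPC+IPO, IPO and IPC against sham, and 11 over any of the 5 groups. With only the groups compared, IRI against sham and IPC+IPO against sham gave 0, beside 0 and 12 of all genes. Array weights raised the counts to 17 (IRI against sham), 16 (IPO against IRI), 2 (IPC against IRI), 14 (IPC+IPO against IRI), 28, 30 and 28 (IPC+IPO, IPO and IPC against sham), 1 (interaction) and 32 (any group), with 8 of the 9 genes of IPO against IRI shared. Of all genes, array weights called 1894 in IRI against sham, 6098 in IPO against IRI and 4484 in IPC+IPO against IRI. Against sham they called 9007, 9749 and 7051 in IPC+IPO, IPO and IPC, and over any group 9708. Counts over all genes thus rose too, so these rises do not set the members apart. All-gene counts with array weights for IPC against IRI and the interaction are not given here. Without the dimmest genes IPC+IPO against sham gave 8 (777 of the genes kept). With all probe sets IRI against sham gave 2 (78 of all probe sets tested). Renewed quantile normalization gave 2 in IPC+IPO against sham (1 each way), 5 in IPO against sham (2 higher, 3 lower), 6 in IPC against sham (2 higher, 4 lower, 2 shared) and 8 over any group (4 shared). Of all genes it called 325, 1316, 670 and 1247 in these. Spread as a covariate gave 11 in IRI against sham, 0 in IPO against IRI, 0, 0 and 3 in IPC+IPO, IPO and IPC against sham, and 1 over any group. The all-gene counts were 854, 2, 34, 0, 275 and 195. At an adjusted p of 0.01 the counts were 0 in IRI against sham, 0 in IPO against IRI, 1, 5 and 3 in IPC+IPO, IPO and IPC against sham, and 3 over any group. All-gene counts at that limit were 2, 41, 30, 697, 142 and 171. Without the 14 arrays of lowest spread the member counts were 0 in IRI against sham, 5 in IPO against IRI (all higher, 2 shared), 2 in IPC+IPO against IRI, 0 in all 3 interventions against sham and 1 over any group. Of all genes this fit called 3, 1077, 601, then 0, 0 and 7 in IPC+IPO, IPO and IPC against sham, and 283 over any group. In IRI against sham Atp5mc2 turned to -0.0816 and Cox6a1 to -0.0294. This fit keeps 2 of 8 sham arrays. Leaving out 1 array gave 0 to 12 in IRI against sham, 1 to 10 in IPO against IRI, 0 to 1 in IPC against IRI, 0 to 4 in IPC+IPO against IRI, 1 to 17, 8 to 23 and 3 to 13 in IPC+IPO, IPO and IPC against sham, and 4 to 21 over any group. In IRI against sham it was 0 without IRI 6 or 9 or sham 44 to 47, 2 without IRI 1, 7 or 8, IPO 30 or IPC+IPO 37 or 38, 6 without sham 43 and 12 without sham 48. In IPO against IRI it was 1 without IRI 7 and 5 without IRI 8 or 9 or IPO 22, 23, 26 or 28. IPC against IRI gave 1 without IRI 1, and IPC+IPO against IRI 4 without IRI 1 or IPC+IPO 38. IPC+IPO against sham gave 1 without sham 46, 3 without sham 41, 42, 45 or 47, 9 without IPO 30, 13 and 14 without IPC+IPO 37 and 38, 16 without sham 43 and 17 without sham 48. IPO against sham gave 8 without sham 46, 9 without sham 47 and 11 without IPO 27 or sham 45. IPC against sham gave 3 without IPC 13, 14 or 16 or sham 41, 42 or 44 to 47, 12 without sham 43 and 13 without sham 48. Counts over all genes with 1 array left out are not given here, so these ranges do not set the members apart from other genes. The cause of these shifts was not tested. No paired analysis was possible because every animal has a number of its own. How many arrays a group has limits the precision.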
